A study of Danio rerio with 8 samples.

Results

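The venous and lymphatic endothelium of sibling zebrafish embryos was profiled by RNA sequencing at 3 days post fertilisation. It is represented by 4 of the 8 libraries of the study, those labelled as ddx21 siblings, chosen by their sample labels and called siblings 1 to 4 here. The other 4 libraries came from embryos mutant for ddx21, a nucleolar RNA helicase, and were not used. The labels do not give the siblings' own genotype or say whether the 4 libraries came from separate clutches. The number of embryos pooled for each library is not given in the sources used here either. All embryos carried both transgenes Tg(fli1a:nEGFP) and Tg(5.2lyve1b:DsRed). The first puts a green protein into the nuclei of cells that use the fli1a promoter, chiefly endothelial cells. The second labels cells red through a fragment of the lyve1b promoter, which venous and lymphatic cells use. The sort took cells with both colours, so fli1a and lyve1b, and the genes that follow them, were in effect part of the gate.

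Endothelial cells line blood and lymphatic vessels. In the zebrafish, lymphatic endothelial cells arise from veins, chiefly the cardinal vein, under the growth factor Vegfc and its receptor Flt4, and they take on the transcription factor Prox1. Venous endothelium of the embryo also works as a scavenger, taking up waste from the blood through receptors of the stabilin and mannose receptor families, and lyve1b, stab2 and mrc1a mark both venous scavenger cells and lymphatics. Arterial endothelium is kept apart by Notch signalling and carries its own markers.

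Depth ranged from 38459219 counts in sibling 1 to 50569923 in sibling 4 over 32520 genes. The number of genes with a count ran the other way, with 25329 in sibling 1, 25086 in sibling 2, 21623 in sibling 3 and 18064 in sibling 4. At least 1 CPM (1 count per 1000000 counts of the library) was reached in all 4 libraries by 12036 genes. Sibling 4 stood apart: the matched genes of the exocrine pancreas list took 5.08% of its reads, against 0.0565% to 0.108% in the other libraries. Its correlation of log2 levels with the other siblings was 0.82 to 0.84 over the 16312 genes that averaged 1 CPM or more, against 0.86 to 0.91 among siblings 1, 2 and 3. Because of this, the endothelial, factor, receptor, ligand and muscle counts that sibling 4 leads are also given without it. The spread between libraries far exceeded the counting error: over the 3265 genes that averaged 50 CPM or more, the median coefficient of variation was 24.0%, against 1.47% for counting alone. Levels below are CPM normalised by the trimmed mean of M-values (TMM) and given as mean ± SD over n = 4 libraries. CPM count reads and were not divided by gene length, so a rank is a rank by reads among the 32520 genes, and a difference in CPM between 2 genes is no difference in the number of their transcripts.

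All 6 marker genes of the sorted population were detected in all 4 libraries. The gene of the red reporter, lyve1b, which codes for a hyaluronan receptor, had 651, 642, 774 and 814 CPM in siblings 1 to 4, with a mean of 720.2 ± 86.9 and rank 180. The gene of the green reporter is listed as FLI1 (the zebrafish fli1a), codes for an ETS transcription factor of blood and endothelium, and had 719.6, 789, 1175 and 1488 CPM, a mean of 1043 ± 358 and rank 109. The lyve1b values lay within 1.27-fold of each other, while FLI1 spanned 2.07-fold with its highest value in sibling 4. FLT4 (flt4), the Vegfc receptor, had 236, 279, 361 and 351 CPM and rank 496. For stab2, a scavenger receptor that takes up hyaluronan, the values were 155, 97.7, 140.5 and 125 CPM with rank 1298. These 2 genes varied little between libraries, with SDs of 0.29 each on the log2 scale. The other 2 markers are found in all endothelium. The Vegf receptor gene kdrl had 290.0, 178, 462 and 551 CPM and rank 391. The gene of the junction protein VE-cadherin, cdh5, had 254, 192, 557 and 601 CPM and rank 360. Both were highest in sibling 4 and lowest in sibling 2, 3.10-fold apart for kdrl and 3.13-fold for cdh5, with log2 SDs of 0.73 and 0.82.

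**Figure D1:**
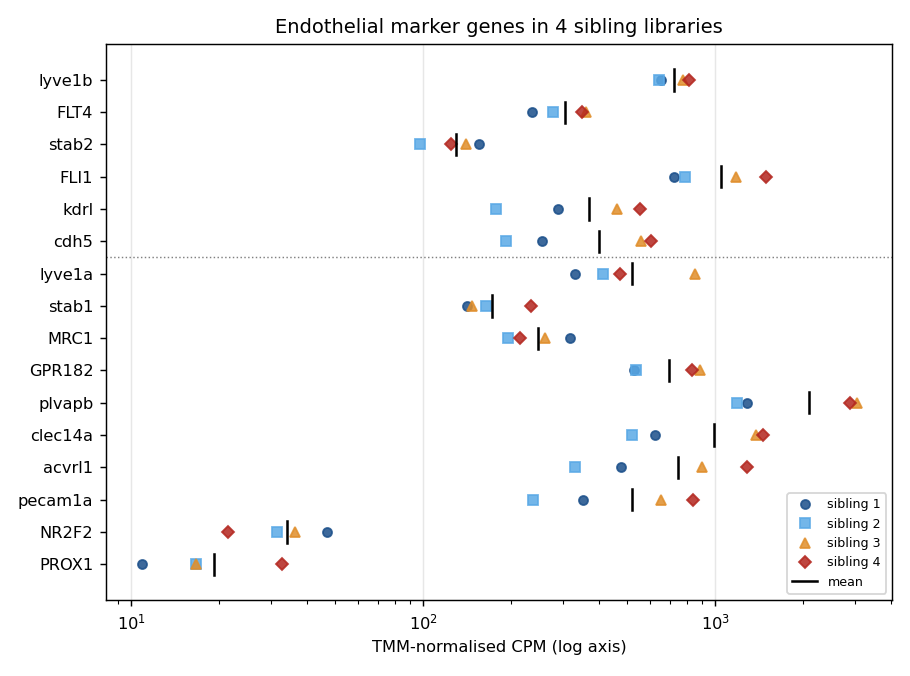
Levels of 16 endothelial genes in the 4 sibling libraries, 1 row per gene, in TMM-normalised CPM on a log axis; points are single libraries and the black bar is their mean. The 6 markers stand above the dotted line. The points of lyve1b, between 642 and 814 CPM, lie close together, whereas those of cdh5 run from 192 to 601 CPM.

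Genes of the pan-endothelial list took 1.37%, 1.18%, 2.37% and 2.33% of the reads of siblings 1 to 4, a mean of 1.81 ± 0.626%. The lymphatic list took 0.670 ± 0.151%, the venous list 0.595 ± 0.121% and the arterial list 0.227 ± 0.0898%. Counted once each, the 109 genes of these lists held 2.25%, 1.95%, 3.54% and 3.49% of the reads. Each of the 51 pan-endothelial genes reached 1 CPM in all 4 libraries, as did 27 of 31 lymphatic, 16 of 16 venous and 18 of 24 arterial genes, compared with 12036 of the 32520 genes in the table. The median level of a list member was 285 CPM for pan-endothelial, 60.1 CPM for lymphatic, 202 CPM for venous and 26.4 CPM for arterial genes. Symbols that could not be matched, such as efnb2a, cldn5b and cxcr4a of the arterial list, are left out of these shares and medians. Lists share genes: plvapb is on the pan-endothelial and the venous list, and lyve1b, FLT4, stab1, stab2 and MRC1 are on both the venous and the lymphatic list. In such a bulk sample fewer cells of a type and less RNA of that type per cell cannot be told apart.

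**Figure D2:**
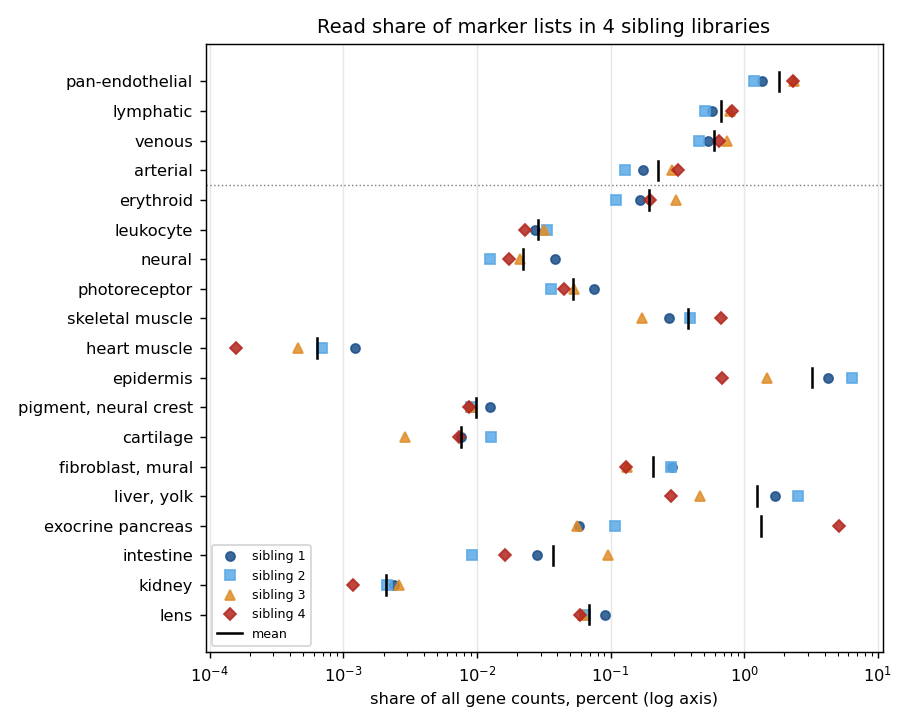
Share of all gene counts taken by each marker list in the 4 sibling libraries, in percent on a log axis; points are libraries and the black bar is their mean. Endothelial lists stand above the dotted line and lists of other tissues below it. Epidermis at 0.682% to 6.38% and exocrine pancreas at 0.0565% to 5.08% spread most widely among the lists that reached 1% of a library.

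Most pan-endothelial genes were highest in sibling 3 or sibling 4. Sibling 4 held the highest value for 32 of the 51 genes, sibling 3 for 18, sibling 1 for 1 and sibling 2 for 0. Over the 16312 genes that averaged 1 CPM or more, the highest value fell in sibling 1 for 20.7%, in sibling 2 for 23.5%, in sibling 3 for 26.2% and in sibling 4 for 29.6%. With sibling 4 left out, sibling 3 was highest for 50 of 51, against 39.0% of all genes, 28.7% for sibling 1 and 32.3% for sibling 2. The median gene of the list lay 0.48 and 0.51 below its own mean in siblings 1 and 2, and 0.49 and 0.58 above it in siblings 3 and 4, on the log2 scale. The share of epidermal genes ran the opposite way, at 4.26%, 6.38%, 1.49% and 0.682% in siblings 1 to 4, and its part in the pan-endothelial levels was not tested. TAL1, a transcription factor of blood and endothelial progenitors, was the exception, with its highest value in sibling 1: 106, 73.2, 73.8 and 63.5 CPM.

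Among pan-endothelial genes plvapb, which codes for the diaphragm protein of fenestrae and caveolae, took the most reads, with 1280.3, 1184, 3051 and 2891 CPM and rank 38. The surface lectin gene clec14a had 622, 518, 1382 and 1453 CPM. For pecam1a, which codes for a junction adhesion molecule, the values were 351, 237, 651 and 842 CPM. In each of these 3 genes siblings 3 and 4 lay above siblings 1 and 2 without overlap. The share of all genes that split in this way was not counted. DUSP5, a phosphatase of the ERK kinases, had rank 91 with 1173 ± 357 CPM, and podxl, a sialomucin of the vessel lumen, had rank 189 with 684 ± 273 CPM. CAV1, the coat protein of caveolae, varied less, with 609.7, 479, 742 and 523 CPM and a log2 SD of 0.28. SCARF1, a scavenger receptor, had the smallest spread of the list, 0.21, at 97.0 ± 14.4 CPM, and myct1b the widest, 1.19, at 62.3 ± 41.4 CPM. Further members between 216 and 326 CPM on average were plvapa, tmem88a, rasip1, MYCT1, ecscr, AQP8, calcrla and ushbp1, with the claudin CLDN5 (ENSDARG00000014059) at 285 ± 123 CPM. Below them stood ADGRL4, ESAM, tek and fgd5a at 163 to 199 CPM, then robo4 and tmem88b at 96.2 and 93.7 CPM. The members with the fewest reads were RASGRP3, MCAM, CLDN5 (ENSDARG00000043716), heg1, vwf and exoc3l2a at 24.0 to 60.0 CPM, and she at 6.24 ± 1.76 CPM.

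**Figure D3:**
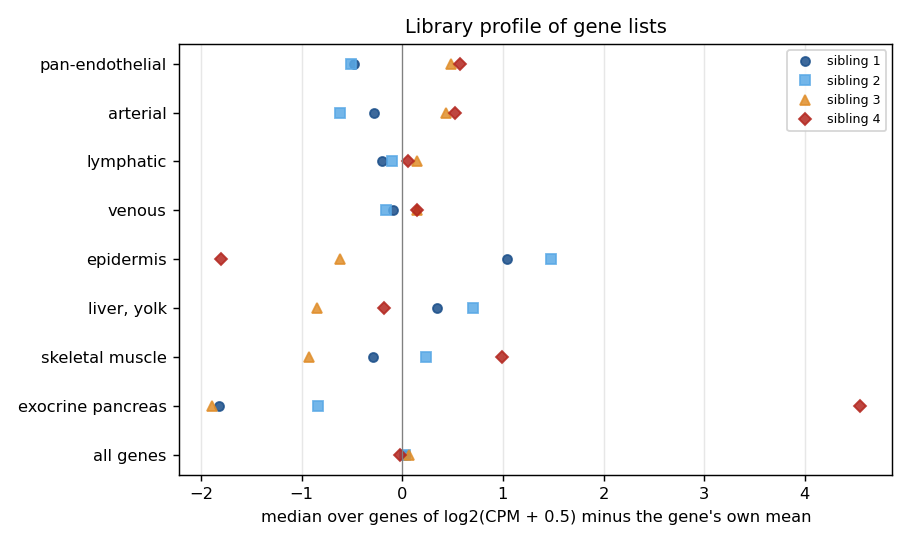
Median over the genes of a list of log2(CPM + 0.5) minus the gene's own mean over the 4 libraries, 1 row per list and 1 point per sibling library. Pan-endothelial genes lie at -0.48 and -0.51 in siblings 1 and 2 and at 0.49 and 0.58 in siblings 3 and 4, epidermal genes lie on the other side of 0 in each library, and exocrine pancreas genes reach 4.55 in sibling 4.

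The lymphatic genes were more even. The median log2 SD over the 28 members that averaged 1 CPM or more was 0.42, against 0.60 for pan-endothelial genes and 0.43 for all genes that averaged 10 CPM or more. Sibling 4 was highest for 12 of the 28, sibling 3 for 8, sibling 1 for 5 and sibling 2 for 3. That is 42.9%, 28.6%, 17.9% and 10.7%, against 29.6%, 26.2%, 20.7% and 23.5% of all genes. Without sibling 4, sibling 3 was highest for 17 of 29, against 39.0% of all genes. Most reads of the list belonged to fabp4a, a fatty acid-binding protein gene that the list names fabp11a: 2115, 1918, 3558 and 4745 CPM, rank 23. The paralogue of the reporter gene, lyve1a, had 332, 412, 852 and 472 CPM, with its highest value in sibling 3. MRC1, the mannose receptor gene known in zebrafish as mrc1a, had 318, 196, 261 and 215 CPM. For cdh6, a cadherin gene, the values were 149, 159, 128 and 124 CPM, and its log2 SD of 0.17 matched that of lyve1b to 2 decimals. ANGPT2, a ligand of the Tek receptor, had 177 ± 40.9 CPM. Stabilin 1, stab1, had 142, 164, 147 and 234 CPM.

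Of the regulators of lymphatic fate, PROX1, the transcription factor that defines lymphatic identity, took few reads: 10.9, 16.6, 16.7 and 32.8 CPM, a mean of 19.3 ± 9.44 and rank 6457. Its relative prox3 had 17.5 ± 5.07 CPM. NR2F2, the factor of venous identity also called COUP-TFII, had 47.0, 31.5, 36.4 and 21.4 CPM, with its lowest value in sibling 4, where PROX1 was highest. The lymphatic transcription factor genes OSR2 and TBX1 had 119 ± 47.4 and 117 ± 19.8 CPM. OSR2 had 88.2, 92.7 and 105 CPM in siblings 1 to 3 and 189 CPM in sibling 4. FOXC1 reached 60.1 ± 31.4 CPM, foxc1b 28.1 ± 3.60 CPM and NFATC1, a factor of valve formation, 20.9 ± 6.84 CPM.

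Among Vegfc pathway genes, the ligand VEGFC had 39.5, 60.0, 43.8 and 94.7 CPM and its coreceptor gene NRP2 66.9 ± 19.5 CPM (ENSDARG00000038446) and 26.0 ± 9.98 CPM (ENSDARG00000096546). ITGA9, an integrin of lymphatic valves, had 36.0 ± 7.70 CPM, TMEM204 47.7 ± 16.7 CPM and lcp2a 49.7 ± 8.26 CPM. The listed genes whose proteins help to process or present Vegfc outside the cell took few reads. CCBE1 had 0.189, 1.04, 1.13 and 0 CPM, ADAMTS3 0.970, 1.71, 0.349 and 0.779 CPM, and ADAMTS14 0.118, 0.241, 0 and 0 CPM. SVEP1, an extracellular matrix protein needed for lymphatic growth, had 3.34, 4.1, 0.452 and 0 CPM. In sibling 4 a count of 0 allows a level of up to 0.0649 CPM, taking 3 counts as the limit, for counting error only.

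Venous genes had a median log2 SD of 0.37 over 16 genes. This was below the 0.42 of the lymphatic list over all 4 libraries, but the order turned without sibling 3, with 0.37 for venous and 0.35 for lymphatic genes, and both were 0.34 without sibling 4. The median deviations of the venous genes stayed between -0.16 and 0.15 in all 4 libraries. GPR182, a receptor of venous and lymphatic endothelium that takes up chemokines, had 527, 536, 886 and 832 CPM and rank 185. The cathepsin gene ctsla had 619, 657, 696 and 548 CPM. For dab2, an adaptor of endocytosis, the values were 209.9, 242, 176 and 229 CPM. The last 2 genes, with log2 SDs of 0.15 and 0.20, were among the most even of the list. The apelin receptors aplnra and aplnrb had 190.4 ± 51.8 and 234 ± 96.9 CPM. The receptor of ephrin B2 on veins, ephb4a, had 126, 107, 169 and 165 CPM. The widest member was il13ra2, an interleukin 13 receptor gene, with 91.0, 161, 44.2 and 30.6 CPM, highest in sibling 2. Sibling 3 was highest for 7 of the 16 venous genes, sibling 1 for 4, sibling 4 for 3 and sibling 2 for 2. That is 43.8%, 25.0%, 18.8% and 12.5%, against 26.2%, 20.7%, 29.6% and 23.5% of all genes.

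Arterial and Notch genes were also read. The arterial Notch ligand gene dll4 had 191, 235, 363 and 417 CPM and rank 513. The Vegf decoy receptor gene flt1 had 232, 189, 415 and 490.3 CPM. The endothelin gene edn1 had 158, 119.8, 351 and 367 CPM. In all 3 of them siblings 3 and 4 lay above the other libraries, as for cdh5. How common this split is among all genes was not counted. The gap junction gene gja4 had 121 ± 49.7 CPM, and the Notch ligand genes dlc and jag2b had 123 ± 43.0 and 105 ± 42.1 CPM. NOTCH1 had 78.0 ± 31.0 CPM for ENSDARG00000103554 and 15.8 ± 3.19 CPM for ENSDARG00000052094, and the Notch targets HEY2 and HEY1 had 47.0 ± 22.0 and 29.0 ± 14.4 CPM. NOTCH3, which outside endothelium marks mural cells, was nearly constant at 17.6, 17.3, 16.2 and 16.6 CPM. NRP1, jag1b, MECOM and nrp1b lay between 12.6 and 31.3 CPM on average, and GJA5 (ENSDARG00000040065 and ENSDARG00000069450) and fbln5 at 8.52, 4.70 and 3.78 CPM. TBX20 had 1.03 ± 1.06 CPM, while heyl, jag1a and UNC5B, which guides arterial branches, stayed under a mean of 1 CPM. The median log2 SD over 21 arterial genes was 0.70. Siblings 4 and 3 were highest for 11 and 8 of the 21, or for 9 and 10 with library totals. Of all genes 29.6% and 26.2% were highest in siblings 4 and 3, or 22.8% and 26.2% with library totals. Without sibling 4, sibling 3 was highest for 16 of the 21, against 39.0% of all genes.

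Transcription factor genes of the chosen list took 2.67 ± 0.264% of the reads, and 144 of 171 reached 1 CPM in all 4 libraries. Of all 32520 genes 12036 did so. The matched genes of the list were led by an early response gene, JUNB (ENSDARG00000104773). It had 3205, 5811, 3215 and 4859.7 CPM and rank 13, highest in sibling 2. The second JUNB gene (ENSDARG00000074378) had 876, 1574, 844 and 1379 CPM and JUN 699, 1084, 935 and 1067 CPM. FOS, which was among the 10 genes with the most reads, had 4254, 6521, 3485 and 7939 CPM. It is not among the matched genes of the list, whose symbol fosab found no identifier. All 4 of these activator protein 1 (AP-1) genes were higher in siblings 2 and 4 than in sibling 1. JUN and, by a small margin, JUNB (ENSDARG00000104773) were also higher in sibling 3 than in sibling 1. The share of all genes with this order was not counted, and other AP-1 genes of the list were not compared. YBX1, a nucleic acid-binding factor, had 2172 ± 367 CPM.

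Next to these stood factors of endothelium. The flow-responsive factors klf2a and klf2b had 633, 723, 1449 and 1455 CPM and 606, 804, 799.5 and 1036 CPM. The BMP target ID1 had 376, 367, 1164 and 1171 CPM. ID1 was alike in siblings 1 and 2 and alike in siblings 3 and 4, with 3.19-fold between its lowest and highest values. The pioneer of endothelial fate, etsrp (etv2), had 510.2, 453, 965 and 1010.3 CPM and rank 175. The SoxF genes SOX7, sox18 and SOX17 had 307, 348, 905 and 1006 CPM, then 156, 228, 419.9 and 531 CPM, then 25.6, 17.3, 49.9 and 82.0 CPM. Each of the 3 SoxF genes was highest in sibling 4. LMO2, a partner of Tal1, had 389, 349.6, 530.3 and 803 CPM. Lower down, ERG, GATA2 and ETS1 had 128 ± 48.5, 95.7 ± 41.6 and 92.5 ± 17.6 CPM, and hhex 37.2 ± 15.6 CPM. Among general factors in the first 15, XBP1, of the secretory pathway, had 515, 590.1, 477 and 558 CPM with a log2 SD of 0.13. Further means were atf4b 705 ± 118 CPM, FOXP4 592 ± 106 CPM and hmga1a 552 ± 135 CPM. Over the 160 listed factors that averaged 1 CPM or more, sibling 4 was highest for 71, sibling 3 for 38, sibling 2 for 32 and sibling 1 for 19. Sibling 4 thus had 44.4%, against 29.6% of all genes, or 35.0% against 22.8% with library totals. Without sibling 4, sibling 3 was highest for 81 of 161, against 39.0% of all genes. Sibling 2 was then highest for 51 and sibling 1 for 29, against 32.3% and 28.7% of all genes.

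**Figure D4:**
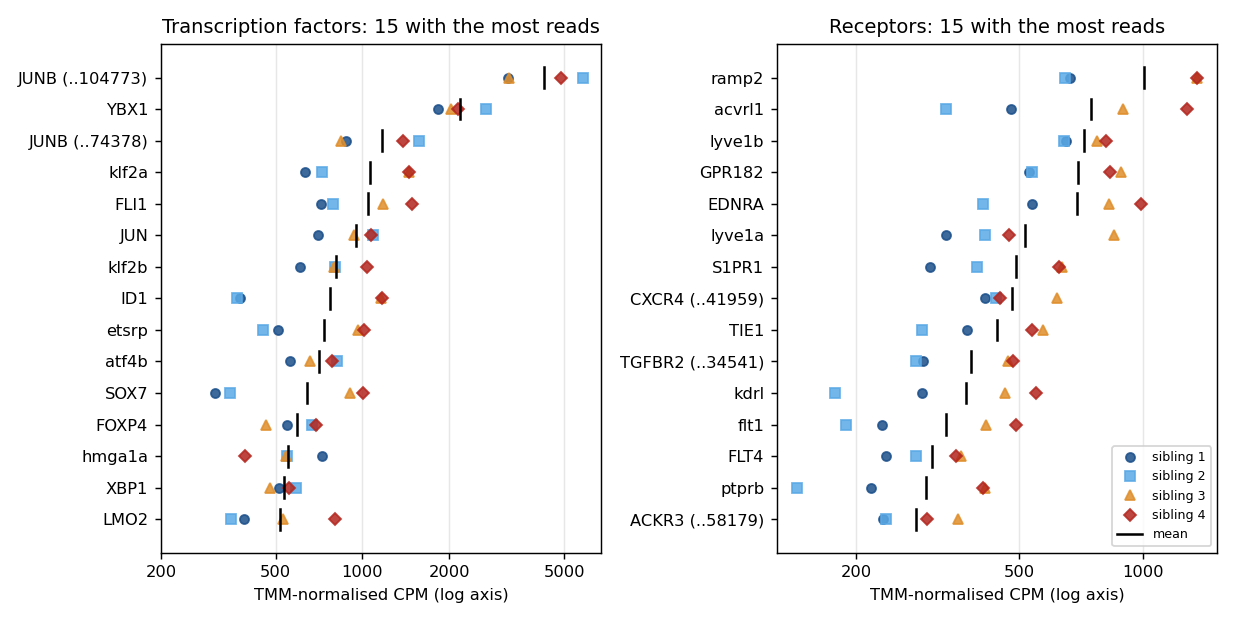
The 15 transcription factor genes (left) and the 15 receptor genes (right) with the highest mean level on their lists, in TMM-normalised CPM on a log axis; points are the 4 sibling libraries and the black bar is their mean. JUNB reaches 5811 CPM in sibling 2 and ramp2 1361 CPM in sibling 3, while XBP1 stays between 477 and 590.1 CPM.

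Receptor genes took 1.201 ± 0.260% of the reads, and 88 of 115 reached 1 CPM in all 4 libraries, against 12036 of all 32520 genes. At the head was ramp2, which partners the calcitonin receptor-like receptor to bind adrenomedullin, with 666, 646, 1361 and 1354 CPM. The BMP receptor gene acvrl1 (ALK1) had 477, 332, 898 and 1284 CPM. EDNRA, an endothelin receptor, had 537, 408, 828 and 991 CPM. All 3 had their lowest value in sibling 2. The sphingosine 1-phosphate receptor S1PR1 had 302, 395, 636 and 627 CPM, TIE1, an orphan receptor kinase of vessel maturation, 373, 289, 571 and 537 CPM, and ptprb, the phosphatase that acts on Tie receptors, 218, 143, 412 and 408 CPM. For TGFBR2 (ENSDARG00000034541) the mean was 381 ± 109.8 CPM. The chemokine receptor CXCR4 (ENSDARG00000041959) had 414, 439.8, 619.9 and 448 CPM, and the scavenging receptor of the same ligand, ACKR3 (ENSDARG00000058179), 233, 236, 354 and 298 CPM. These 2 chemokine receptors were both highest in sibling 3. Over 107 receptor genes sibling 4 was highest for 38, sibling 3 for 32, sibling 2 for 21 and sibling 1 for 16, so that sibling 4 had 35.5%, against 29.6% of all genes. Scaled by library totals in place of TMM, 32 receptor genes were highest in sibling 4 and 37 in sibling 3. Of all genes 22.8% and 26.2% were then highest in siblings 4 and 3. Without sibling 4 the highest value fell in sibling 3 for 58 of 109, against 39.0% of all genes.

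Among 74 listed ligand genes 55 reached 1 CPM in all 4 libraries, against 12036 of all 32520 genes. The list took 0.620 ± 0.150% of the reads. ADM (ENSDARG00000015263), the adrenomedullin gene, had 410.1, 455, 730.1 and 1075 CPM. EGFL7, a secreted endothelial factor, had 367, 471, 846 and 818 CPM. The chemokine gene cxcl12b had 143, 219, 684 and 1019 CPM. This 7.15-fold span of cxcl12b contrasts with CXCL12, its paralogue, which had 225, 210.4, 303 and 288 CPM. The BMP ligand gene bmp16 had 349.7, 329.8, 704 and 655 CPM. APLN, the ligand of the apelin receptors, had 233 ± 41.5 CPM, the growth factor gene MDK (ENSDARG00000036036) 254 ± 53.7 CPM and ANGPTL4, an inhibitor of lipoprotein lipase, 243 ± 50.5 CPM. CCN1, a matricellular protein and target of YAP, had 75.0 CPM in sibling 1 and 291, 268 and 324 CPM in siblings 2, 3 and 4. The ephrin genes EFNB2 (ENSDARG00000074050) and EFNA1 (ENSDARG00000018787) had 186 ± 63.1 and 153 ± 48.0 CPM. For the 66 ligands that averaged 1 CPM or more, the highest library was sibling 4 for 28 and sibling 3 for 19. That is 42.4% and 28.8%, against 29.6% and 26.2% of all genes. With library totals the order turned, to 18 for sibling 4 and 23 for sibling 3. It also turned over all genes, to 22.8% for sibling 4 and 26.2% for sibling 3. Without sibling 4 the highest was sibling 3 for 40 of 67, against 39.0% of all genes.

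Matrix genes split into those that followed the endothelial lists and those that did not. Their list took 1.17%, 1.32%, 0.883% and 0.772% of the reads, and its median log2 SD was 0.80. SPARC, a collagen-binding secreted protein, had 964, 1568, 433 and 211 CPM. COL1A1, a chain of collagen I, had 749, 846, 132 and 89.4 CPM. POSTN (ENSDARG00000043806), the periostin of fibroblast matrix, had 625, 855, 143 and 206 CPM. These 3 genes, with COL1A2 at 433 ± 324 CPM and col1a1a at 433 ± 287 CPM, were highest in sibling 2, as were the keratins krt4 and krt5. Sibling 2 was highest for 36 of the 103 matrix genes that averaged 1 CPM or more, or 35.0%, against 23.5% of all genes. Sibling 4 was highest for 31, sibling 3 for 22 and sibling 1 for 14. The metalloproteinase gene mmp30 had 272, 762, 103 and 11.8 CPM, a 64.5-fold span. Basement membrane chains differed among themselves: COL4A1 had 91.5, 68.4, 101 and 90.5 CPM, whereas col4a5 had 178, 115, 1.73 and 5.24 CPM and LAMA5 99.6, 124, 12.8 and 19.5 CPM. By contrast mmrn2a, a multimerin of endothelial matrix, had 174, 187, 451 and 535 CPM, IGFBP7 318, 403, 481 and 758 CPM and lama4, the laminin chain of endothelium, 74.4, 74.7, 110.3 and 152 CPM. The remaining leaders were IGFBP1 at 695 ± 176 CPM, TGFBI at 474 ± 107 CPM, vwa1 at 352 ± 75.1 CPM, HAPLN3, a hyaluronan link protein, at 301 ± 63.2 CPM and the protease inhibitor TIMP2 (ENSDARG00000061226) at 266 ± 59.9 CPM. The genes COL4A1, col4a5, LAMA5 and lama4 were picked for mention after their values were known. Fibroblast and mural genes as a list took 0.286%, 0.281%, 0.133% and 0.131% of the reads, and their part in the matrix levels was not tested.

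Reads of other tissues were present in each library. The 345 genes of the 16 other-tissue lists that are on no endothelial list together took 7.06%, 10.03%, 2.94% and 7.24% of the reads of siblings 1 to 4. This sum leaves out FLI1, which is on the thrombocyte and the pan-endothelial list. It also leaves out list symbols that could not be matched, among them those of abundant pancreas genes such as cpa1. It includes genes such as RGS5 and krt8 that need not come from another tissue. Epidermis took the most on average, 3.204 ± 2.61%, and the most in siblings 1 to 3 but not in sibling 4, where exocrine pancreas genes took 5.08% and epidermis 0.682%. Of the 30 epidermal genes 23 were at 1 CPM or more in all libraries, against 12036 of all 32520 genes. The keratin genes krt4, krt5 and krt1-19e alone held 3.33%, 5.25%, 0.857% and 0.208% of the reads. At gene level krt4 had 18759, 26231, 5119 and 1599.6 CPM and krt5 7941, 16434, 2213 and 465 CPM. Both had their highest value in sibling 2 and their lowest in sibling 4. The epithelial adhesion gene epcam followed with 826, 1264, 309 and 62.4 CPM. The simple-epithelium keratins krt8 and krt18a.1, on the same list, ran the other way: krt8 had 1176, 1171, 2143 and 2256 CPM and krt18a.1 1158, 1037, 2383 and 2300.3 CPM.

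Liver and yolk genes took 1.70%, 2.54%, 0.468% and 0.281%. Most of this was apoeb, an apolipoprotein gene of the yolk and of other tissues, with 11122, 19308, 2807 and 1038 CPM. RBP4, the retinol carrier, had 1235, 2226, 348 and 129.7 CPM and followed the same order, but apoa2, with 1019, 1312, 283 and 613 CPM, and the transferrin gene tfa, with 746, 949.8, 87.8 and 344 CPM, were lowest in sibling 3.

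The exocrine pancreas list was high in sibling 4 alone. Its share was 0.0580%, 0.108%, 0.0565% and 5.08% in siblings 1 to 4, with a mean of 1.33 ± 2.50% over all 4 and 0.074% without sibling 4. This share leaves out CPA1 (ENSDARG00000021339 and ENSDARG00000030915), CELA1 (ENSDARG00000017314) and SYCN (ENSDARG00000103687), which are not among the matched genes of the list. In sibling 4 they had 10254.5 and 461 CPM for CPA1, 9448 CPM for CELA1 and 859.5 CPM for SYCN. The trypsinogen gene prss59.2 had 100.4, 269, 147 and 13818 CPM. The elastase genes ela2 and ela2l had 65.7, 117, 69.8 and 8970.3 CPM and 73.3, 120.0, 62.7 and 6514 CPM, and prss59.1 had 42.5, 96.2, 43.6 and 4808 CPM. Sibling 4 was highest for 19 of the 20 pancreas genes that averaged 1 CPM or more, against 29.6% of all genes. The 4 named genes of the list were also read in the other 3 libraries, at 42.5 to 269 CPM. Skeletal muscle genes took 0.276%, 0.393%, 0.172% and 0.675%, with 22 of 25 highest in sibling 4 and, without it, 21 of 25 highest in sibling 2. Of all genes 29.6% were highest in sibling 4 and, without it, 32.3% in sibling 2. The muscle actin gene actc1b had 1050.1, 1791, 599 and 3371 CPM, the parvalbumin gene pvalb1 135, 277, 73.7 and 369 CPM, and the fast myosin genes myhz1.1 and myhz2 reached 423 and 519 CPM in sibling 4. The intestinal list was highest in sibling 3, at 0.0958% against 0.00918% to 0.0283%, with FABP2 at 125, 41.3, 412 and 79.4 CPM, chia.2 at 69.3, 14.2, 347 and 41.3 CPM, and TM4SF4 and SLC5A1 at 39.3 and 38.2 CPM in sibling 3.

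The blood genes that could be matched were read at a low level. The erythroid list took 0.166%, 0.110%, 0.308% and 0.198%, led by RHAG, an ammonia channel of red cells, at 320.3, 209.9, 536 and 492 CPM and by the globin genes hbae3, hbae1.2 and hbae1.3 at 302 ± 191, 264 ± 166 and 256 ± 194 CPM. Of the beta-type globin genes on the list only hbbe3 was matched to an identifier, so the erythroid share leaves out the others. The gene hbaa2 was listed at 0 in all 4 libraries. Leukocyte genes took 0.0228% to 0.0334%, led by LCP1 at 89.0 ± 10.3 CPM, laptm5 at 57.0 ± 14.3 CPM, CORO1A at 27.2 ± 4.64 CPM and cd74b at 26.5 ± 6.96 CPM. The leukocyte symbols mpeg1.1, mpeg1.2, mfap4, mfap4.1, mpx and lect2l could not be matched, so this share leaves them out. The complement gene c1qc of macrophages had 0 counts in each library, and 10 further leukocyte genes of 25 had 0 counts in at least 1 library. Of all 32520 genes 4381 had 0 counts in each library and 11858 further genes in at least 1, so these counts do not set leukocyte genes apart. The thrombocyte list took 0.132 ± 0.0237%, of which the genes on no other list held 0.0295%. Its integrin gene itga2b had 185, 326, 257 and 170.1 CPM, mpl, the thrombopoietin receptor, 36.0 ± 8.13 CPM and GP1BB 15.5 ± 6.93 CPM.

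The remaining tissues took less than 0.1% each in any library, apart from the fibroblast and mural list. RGS5, a mural marker that led that list, had 234, 234, 550.1 and 909.5 CPM, the order of the endothelial genes and not of its collagens. Lens genes took 0.0590% to 0.0916%, with the crystallin genes cryba1l1, CRYBB1, cryba1b and crybb1l1 at 91.8 ± 8.98, 84.0 ± 15.7, 72.7 ± 8.95 and 44.4 ± 5.80 CPM. The median log2 SD of 41 lens genes was 0.37, as small as that of the venous genes. Sibling 1 was highest for 25 of the lens genes, or 61.0%, against 20.7% of all genes. Photoreceptor genes took 0.0355% to 0.0754%, led by the opsin gene opn1mw1 at 122 ± 38.4 CPM and ARR3 (ENSDARG00000098475) at 117 ± 29.7 CPM, then GNGT2 (ENSDARG00000103543) at 86.8, 40.2, 64.6 and 51.8 CPM and opn1sw2 at 53.8 ± 16.8 CPM. Neural genes took 0.0125% to 0.0382% and were highest in sibling 1, where GNG3 had 85.6 CPM and ELAVL4 57.6 CPM. The myelin gene mbpa and SNAP25 (ENSDARG00000058117) had 45.0 ± 27.5 and 25.6 ± 9.06 CPM. Pigment and neural crest genes took 0.00866% to 0.0125%, chiefly PAICS, a purine synthesis gene used in all cells, at 48.6 ± 1.73 CPM, with TYRP1 (ENSDARG00000056151), TFEC and gch2 at 17.9, 10.3 and 5.72 CPM. Cartilage genes took 0.00287% to 0.0127%, led by MATN4 at 32.7 ± 23.5 CPM, cnmd, COL9A1 and epyc. The kidney list took 0.00119% to 0.00261%, with TRPM6 at 8.06 ± 1.89 CPM and LRP2, SLC13A1 and pdzk1ip1 at 2.73, 2.67 and 2.67 CPM. The heart muscle list stayed at 0.00122% or below: MYL7, a cardiac myosin light chain gene, had 2.99 ± 0.866 CPM, myh7bb 1.52 ± 1.88 CPM, and cmlc1 and nppb stayed under 1 CPM on average. The smallest of these shares, 0.000158% for heart genes in sibling 4, rested on 80 counts and had an exact (Clopper-Pearson) 95% interval of 0.000125% to 0.000197%, for counting error only.

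Some of the genes with the most reads were shared by the 4 libraries, others were not. The long noncoding RNA malat1 led each of them, with 47865, 36399.9, 50392 and 54074 CPM. The gene ENSDARG00000080337, which the name table leaves unnamed, followed with 21852 ± 2751 CPM, then HSPA8 (ENSDARG00000068992), a chaperone, with 14409.5 ± 1543 CPM. The epidermal and yolk genes krt4, apoeb and krt5 came next by their mean, yet in sibling 4 they held ranks 72, 126 and 354, behind pancreas genes such as prss59.2 and ela2. MT-CO2 and MT-CYB, encoded in the mitochondrial genome, had 6742 ± 887 and 5979.8 ± 1126 CPM, and the ribosomal protein gene RPL3 had 5542, 5947, 6021 and 5536 CPM. The 10 leading genes held 15.3%, 15.9%, 12.5% and 10.9% of the reads, and between 357 and 443 genes held 50% of a library.

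**Figure D5:**
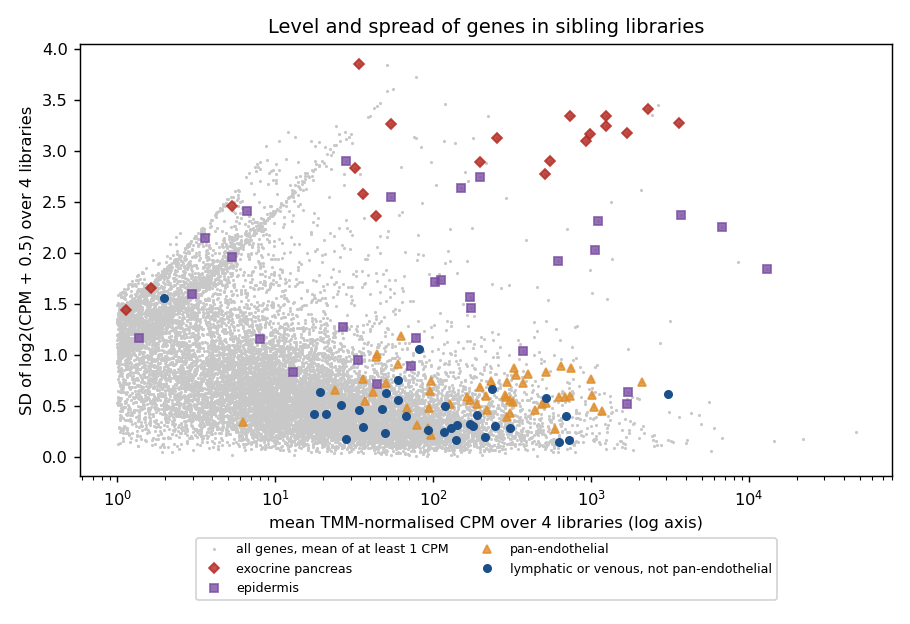
Mean level over the 4 sibling libraries (TMM-normalised CPM, log axis) against the SD of log2(CPM + 0.5) for each gene that averaged 1 CPM or more; grey points are all 16312 genes and coloured points are list members. The list medians were 0.42 for lymphatic and 0.37 for venous genes. The median of all genes was 0.61, and 0.43 for those that averaged 10 CPM or more. Pancreas genes lie at the top of the cloud (median 3.11).

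Among the 3265 genes that averaged 50 CPM or more, 10 stood out as the most even. The gene matr3l1.2, of a nuclear matrix protein family, had 78.4, 77.5, 78.8 and 78.7 CPM. The peroxiredoxin gene prdx5 had 141, 139.7, 141 and 142 CPM. The retrieval receptor gene of the endoplasmic reticulum, kdelr2a, had 90.1, 91.2, 90.5 and 91.9 CPM. Their log2 SDs were 0.01 each, and the other 7 of the 10 most even genes, hmgn7, PPP6C, UBE4B, HEXA, JPT2, SDHC and TBCA, had 0.02 or 0.03. None of the 10 is on an endothelial list, but these lists hold only 109 of the 32520 genes, so this says little. At the other end stood myrfl, with 63.4, 1.86, 140.2 and 0.0216 CPM and a log2 SD of 3.84, and caspb, an inflammatory caspase gene, with 98.9, 188, 25.4 and 0.0866 CPM. The desmosome gene pkp3a had 74.7, 128, 21.3 and 0 CPM, and si:ch73-127m5.3 had 93.5, 98.5, 12.4 and 0 CPM. All 4 genes had their lowest value in sibling 4, and myrfl was also low in sibling 2. The other 6 of the 10 widest genes were high in sibling 4. They were the exocrine pancreas genes CPA1 (ENSDARG00000021339 and ENSDARG00000030915), ela2, CELA1 (ENSDARG00000017314) and SYCN (ENSDARG00000103687), with c6ast4, a protease gene of the astacin family.

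Pairs of related genes kept their ratio to different degrees. The ratio is given as log2 of CPM, not per length, so what can be read is its change between libraries. The pairs plvapb over plvapa, TIE1 over tek, sox18 over SOX7 and FLI1 over fli1rs (the zebrafish fli1b) had SDs of 0.20, 0.21, 0.21 and 0.25, although their members differed between libraries by more. For kdrl over KDR, the zebrafish Vegf receptor paralogues, the ratio was 2.52, 1.88, 2.47 and 2.56, with an SD of 0.32. The ratio of aplnra over aplnrb had an SD of 0.30. The reporter paralogues lyve1b and lyve1a were less tied: their ratio was 0.97, 0.64, -0.14 and 0.78, so lyve1b had more reads in 3 of the 4 libraries. For stab2 over stab1 it was 0.13, -0.75, -0.07 and -0.90, and for klf2a over klf2b 0.06, -0.15, 0.86 and 0.49. Wide ratios were those of PROX1 over prox3 with an SD of 0.79 and nrp1b over NRP1 with 1.05. PROX1 exceeded prox3 in siblings 2 and 4, whereas prox3 exceeded PROX1 in siblings 1 and 3.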

How the data were processed

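The authors deposited raw read counts per Ensembl gene for 32520 genes, as whole numbers. FastQC, Subread 2.0.0, featureCounts, edgeR and the build GRCz11 are named per the submitters' processing notes, without the order of steps. Whether strand was used, which annotation release was counted and how genes were filtered was not given in the sources used here, so reads of overlapping genes, antisense partners and close paralogues may be split or lost. Symbols came from a name table that covers 29201 of the identifiers, with many in human style, and from the synonyms of a RefSeq table of the assembly GRCz12tu, whose coordinates were not used. Of 961 list symbols 841 (87.5%) matched.

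The 4 sibling columns were matched to samples by their labels. TMM factors (0.914 to 1.10) were computed over these 4 with edgeR 4.0.16 in R 4.3.3. Levels are CPM with those factors. Shares are counts over the library total. Spread is the SD of log2(CPM + 0.5) for genes that averaged 1 CPM or more. Python 3.11.15 did the rest. The spread computation was tested on simulated data. The libraries form 1 group, so no comparison between groups was tested and no p-value is given. Dixon's criterion was used only to point out single libraries. Each library counted as 1 sample, since any pair differed by more than sampling noise (chi-square over its degrees of freedom 112 to 634). The spread between the libraries may be technical. Levels per gene length had been planned but were not computed, since no transcript length was at hand, and ranks and ratios use CPM in their place. Other choices are the library totals or DESeq2 1.42.0 size factors in place of TMM, other pseudocounts and filters, other denominators, and each library left out.

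The 24 gene lists, the 6 markers and the other choices were made with earlier results of these data known. The genes named are the markers, the 10 genes with the most reads, the members of the endothelial lists that averaged 1 CPM or more, the 15 leading members of the transcription factor, receptor, ligand and matrix lists, 5 fate regulators, the 4 leading members of each list of another tissue, the 10 genes of smallest and of largest spread that averaged 50 CPM or more, and 12 gene pairs. The values of 1 of these pairs are not reported here. A further 2 planned pairs were left out because both genes share a symbol. Other genes were added once values were known.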

Additional observations from a re-analysis of the deposited data

Results flagged for a closer look

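Of 252 results examined in the 4 sibling libraries (list shares and levels of named genes), 24 had a library whose gap to the nearest other library took more of the range than the 95% critical value of Dixon's test for 4 samples allows. That is 9.52%. Chance gives about 1 in 20 for values not picked by their spread or level, but the genes examined include those named for the smallest and largest spread and for a high mean, so the excess over chance cannot be read. The outlying library was sibling 4 in 16 of them, sibling 3 in 5, sibling 1 in 2 and sibling 2 in 1.

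In sibling 4 they were the exocrine pancreas share (5.08%), the pancreas genes prss59.2 (13818 CPM), ela2 (8970.3 CPM), ela2l (6514 CPM), prss59.1 (4808 CPM), CPA1 (10254.5 CPM for ENSDARG00000021339 and 461 CPM for ENSDARG00000030915), CELA1 (ENSDARG00000017314, 9448 CPM) and SYCN (ENSDARG00000103687, 859.5 CPM), the protease gene c6ast4 (2864 CPM), and the muscle myosin genes myhz1.1 (423 CPM) and myhz2 (519 CPM). Endothelial genes among them were fli1rs (428 CPM) and OSR2 (189 CPM), both high. The thrombopoietin receptor gene mpl was low at 23.8 CPM, and HEXA, among the 10 most even genes of the data, stood at 55.1 CPM over a range of 53.3 to 53.5 CPM in the other libraries.

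Sibling 3 stood out with high values for CXCR4 (ENSDARG00000041959, 619.9 CPM), for cd74b (36.9 CPM), and for the intestinal and renal genes chia.2 (347 CPM), SLC5A1 (38.2 CPM) and SLC13A1 (9.66 CPM). Sibling 1 stood out with the share of pigment and neural crest genes (0.0125%) and with ELAVL4 (57.6 CPM), a neuronal RNA-binding protein. Sibling 2 had the low value of the cone opsin gene opn1sw2, 28.8 CPM.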

How the results depend on the processing

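The mean log2 ratio of PROX1 over prox3, 0.07 over the 4 libraries with both signs among them, became -0.09 without sibling 2 and -0.22 without sibling 4, and no other ratio changed sign when a library was left out. All 1554 alternative levels of other named genes and 42 of the markers, the 48 alternative log2 ratios of gene pairs and the 6 alternative counts of detected genes stayed within the library SD or within 1.5 times the value given. Of 168 alternative shares 11 moved, and of 223 alternative spreads 9. With 4 libraries a mean without 1 of them cannot differ from the full mean by more than the SD. Leaving out a library could therefore not count as a move of a level, share or ratio, and the 48 ratios had no other alternative. Counting the genes of 1 list only gave 0.728% for pan-endothelial, 0.327% for lymphatic, 0.0214% for venous, 0.0133% for arterial, 2.21% for transcription factor, 0.382% for receptor, 0.420% for ligand, 0.781% for matrix, 0.0295% for thrombocyte and 0.0557% for fibroblast and mural genes, since these lists share members. Without the 10 most abundant genes in the total, transcription factors took 3.09%. Further shares stayed within the library SD but were more than 1.5 times lower: without these 10 genes epidermis took 1.38% and liver and yolk genes 0.429%, without sibling 2 liver and yolk genes 0.816%, without sibling 3 intestinal genes 0.0179%, and without sibling 4 exocrine pancreas genes 0.074%. The median log2 SD became 0.52 for heart, 0.73 for pigment and 0.49 for kidney genes with a pseudocount of 2, 0.65 for heart genes with no filter, and 0.39 for pigment genes at a mean of at least 10 CPM. Leaving out each library in turn gave ranges of 0.49 to 1.12 for heart, 0.63 to 1.16 for liver and yolk, 0.64 to 3.73 for exocrine pancreas and 0.33 to 1.298 for kidney genes, whose lowest values came without sibling 1, 3, 4 and 3 in that order. Sibling 1 was highest for 1 pan-endothelial gene and sibling 2 for 0 under each of the 4 scalings, while the number for sibling 4 ran from 25 with library totals to 35 with DESeq2 size factors, where 22.8% and 29.7% of all genes were highest in it. No paired analysis was possible because the libraries form 1 group with no comparison. The alternatives for levels per length were not run, as no transcript lengths were at hand. Depth limits only the lists of few counts, and the spread between 4 libraries limits the rest.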

Other observations

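Several abundant genes outside the lists, picked after their values were seen, followed the library order of the pan-endothelial genes. RGCC, a regulator of the cell cycle, had 1036, 1252, 3920.2 and 4762 CPM in siblings 1 to 4, with rank 26 by reads. The transporter gene abcg2a had 551, 552, 1673 and 1609.6 CPM. The phosphatase gene DUSP1, an early response gene, had 1216, 1518, 2575 and 2721 CPM, and srgn, the gene of the proteoglycan serglycin, had 784, 748, 1533 and 1733 CPM. In each of these 4 genes both siblings 3 and 4 lay above siblings 1 and 2, a split whose share over all genes was not counted.

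Other abundant genes had the order of the epidermal keratins krt4 and krt5, highest in sibling 2 and lowest in sibling 4. The prostaglandin D synthase gene ptgdsb.1 had 3147, 4659.9, 377 and 98.1 CPM, the water channel gene AQP3 (ENSDARG00000003808) 2064, 2744, 455 and 62.5 CPM, the profilin gene pfn1 4049, 6098, 1762 and 754 CPM, and the thymosin gene tmsb1 2009, 2330.3, 426 and 279.8 CPM. CYP1A1, an enzyme that oxidises xenobiotics, fitted neither order: it had 4269.8 CPM in sibling 1, where its rank was 12, and 633, 209 and 299 CPM in siblings 2, 3 and 4. The early response gene ier2a had 2454, 3207, 2264 and 4484 CPM, highest in sibling 4 and next in sibling 2, as FOS was. The causes of these patterns were not tested.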
